A study of Mus musculus with 6 samples.

Results

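The expression of 39 cell cycle genes was compared between cell classes and treatment groups in single-cell RNA-sequencing libraries of the mouse colon. The genes were found by symbol, and all 39 were present among the 32285 genes of the deposited matrices. They were kept apart by the phase in which their products act. The replication group held 14 genes (Pclaf, Tyms, Mcm2, Mcm3, Mcm4, Mcm5, Mcm6, Mcm7, Pcna, Rrm1, Rrm2, Tk1, Gins2 and Uhrf1) and the mitosis group 23 (Mki67, Top2a, Birc5, Ube2c, Cdk1, Ccna2, Ccnb1, Ccnb2, Cdc20, Aurka, Aurkb, Bub1, Bub1b, Cenpa, Cenpe, Cenpf, Tpx2, Nusap1, Kif11, Kif20a, Plk1, Cdca3 and Cdca8). Stmn1, which encodes a microtubule-destabilizing protein, and Hmgb2, which encodes a chromatin protein, formed a broad group of 2, because cells that do not divide can express both.

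CD45-positive cells, the white blood cells of the tissue, were sorted from wild-type mouse colon after EDTA had been used to take off the epithelium and the remainder had been digested with Liberase TL and DNase I. There was 1 library for each of 6 groups. Specific pathogen free (SPF) mice were sampled untreated (day 0) or after 2 or 7 days of dextran sodium sulfate (DSS), a polymer that injures the colon epithelium. Pseudo germ-free (pGF) mice had received antibiotics for 4 weeks and were sampled then (day 0) or after a further 2 or 7 days of DSS given with continued antibiotics. Strain, age, sex and the number of animals behind a library are not given in the labels. Every comparison therefore sets 1 library against 1 other, no difference was tested, and the intervals below are 95% intervals that cover counting error only.

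A dividing cell copies its DNA in S phase and separates the copies in mitosis. The MCM proteins form the helicase that opens DNA, with Gins2 in the same machine. PCNA is the clamp that holds polymerases on the template, Pclaf binds that clamp, Uhrf1 passes DNA methylation to the new strand, and Tyms, Tk1, Rrm1 and Rrm2 make nucleotides. In mitosis cyclins A and B (Ccna2, Ccnb1, Ccnb2) work with Cdk1, while Aurora and Polo kinases, the checkpoint kinases Bub1 and Bub1b, centromere proteins (Cenpa, Cenpe, Cenpf), spindle motors (Kif11, Kif20a) and the degradation factors Ube2c and Cdc20 order the separation. In the colon, epithelial cells divide in the crypt base, lymphocytes divide after activation, and neutrophils and mature plasma cells are held to have left the cycle. E2F factors are known to act on replication genes, whereas the CHR element and the CCAAT box, which NF-Y binds, are known from promoters of mitosis genes.

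The promoters of the members were searched for those letters, because they part the replication from the mitosis genes independently of any expression value. RefSeq windows (build GRCm38.p6, 250 bases before to 50 bases after the start) held 32 of the 39 members, 12 of the replication, 19 of the mitosis and 1 of the broad genes. The CHR was searched as TTTGAA and the CCAAT box by the letters of its name. The E2F site was searched in 4 spellings, of which the first is TTGGCGC, another is TTGCCGC, the third reads TTCGCGC and the last is TTCCCGC. All were searched on both strands. A gene with several windows counted once if any of them held a match. The 150 bases up to the start are printed for 2 replication genes, Mcm5 (chr8:75109359-75109508, plus strand) and Mcm6 (chr1:128359706-128359855, minus strand), and for 4 mitosis genes, Cdk1 (chr10:69352913-69353062, minus strand), Mki67 (chr7:135716380-135716529, minus strand), Top2a (chr11:99024190-99024339, minus strand) and Cdc20 (chr4:118437344-118437493, minus strand). They read 5′ to 3′ on the strand of the gene, and capitals mark every match to the searched letters.
Mcm5: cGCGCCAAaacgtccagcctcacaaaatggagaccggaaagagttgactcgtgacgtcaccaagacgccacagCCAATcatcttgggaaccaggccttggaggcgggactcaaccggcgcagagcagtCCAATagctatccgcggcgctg
Mcm6: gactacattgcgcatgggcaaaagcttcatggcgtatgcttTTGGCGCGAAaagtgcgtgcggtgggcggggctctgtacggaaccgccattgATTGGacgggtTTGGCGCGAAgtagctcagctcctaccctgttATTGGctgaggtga
Cdk1: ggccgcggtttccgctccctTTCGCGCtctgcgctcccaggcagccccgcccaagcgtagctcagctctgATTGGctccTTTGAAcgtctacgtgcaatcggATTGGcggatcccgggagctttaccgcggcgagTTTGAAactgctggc
Mki67: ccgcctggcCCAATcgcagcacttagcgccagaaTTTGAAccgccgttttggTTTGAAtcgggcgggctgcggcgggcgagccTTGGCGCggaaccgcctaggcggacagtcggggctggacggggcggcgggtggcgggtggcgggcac
Top2a: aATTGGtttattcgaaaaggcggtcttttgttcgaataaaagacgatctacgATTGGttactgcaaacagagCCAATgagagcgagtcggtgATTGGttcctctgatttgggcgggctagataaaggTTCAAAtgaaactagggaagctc
Cdc20: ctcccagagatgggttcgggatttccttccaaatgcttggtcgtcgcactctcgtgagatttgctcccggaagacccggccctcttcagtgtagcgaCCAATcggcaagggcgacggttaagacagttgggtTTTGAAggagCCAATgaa

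E2F letters without a CHR are seen in Mcm5 and Mcm6, a CHR without E2F letters in Top2a and Cdc20, and both in Cdk1 and Mki67. Over all members with a window, the CHR letters were found in 14 of 19 mitosis genes (73.7%) and in 1 of 12 replication genes (Mcm2, 8.33%), against 5466 of 27025 genes with any window (20.2%). The E2F letters were found in 8 of 12 replication genes (66.7%) and in 3 of 19 mitosis genes (Mki67, Cdk1 and Ccnb1, 15.8%), against 10.9% of all genes. CCAAT did not part the groups: 10 of 12 replication and 17 of 19 mitosis genes held it, against 41.1% of all genes. In all 14 mitosis genes with a CHR the same windows also held CCAAT, a pairing found in 7.97% of all genes. Among genes of the same pathways that are not members, the CHR was found in 20 of 29 other mitosis genes (69.0%) and E2F letters in 18 of 26 other replication genes (69.2%), shares close to those of the members. CCAAT was less frequent there than in the members, in 18 of 29 other mitosis genes (62.1%) and 12 of 26 other replication genes (46.2%), and the CHR stood with CCAAT in 15 of 29 other mitosis genes (51.7%). E2F and CCAAT matches overlapped in 3 pairs, in Ccnb1 and Mcm7, and in Mcm5, Mcm6 and Mcm7 matches to different E2F spellings share bases. A match describes letters and is not evidence of binding.

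**Figure D1:**
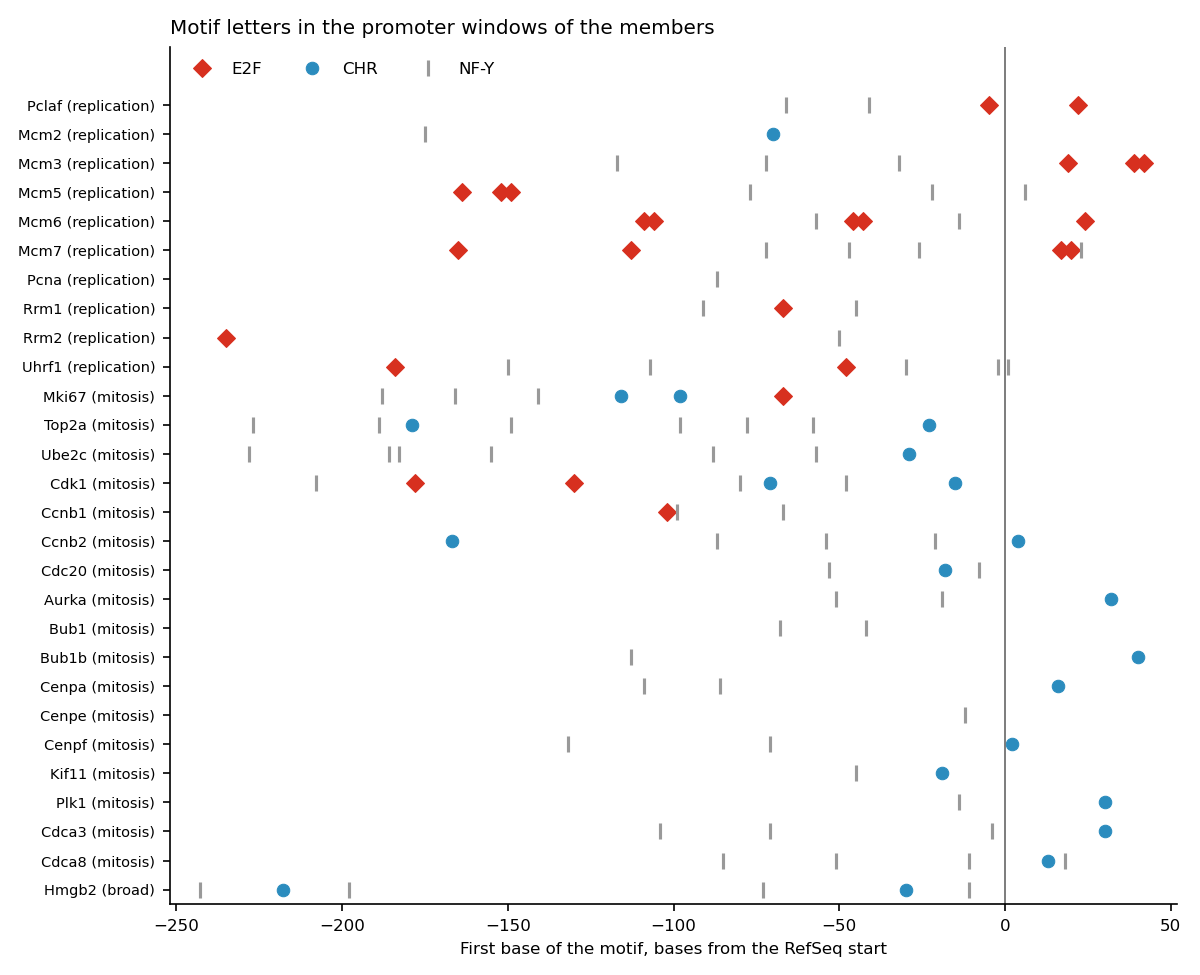
Positions of the CHR, CCAAT box (labelled NF-Y) and E2F matches in the promoter windows of the members with at least 1 match. The x axis gives the first base of a match as its distance from the start of the gene in bases, and each row is 1 gene. CHR marks sit in 14 of 19 mitosis genes and in 1 of 12 replication genes.

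The libraries held 23335071 to 52772901 UMIs (unique molecular identifiers, which count captured RNA molecules) in 1792 to 11629 barcodes. After filters on detected genes, mitochondrial RNA and doublets, 29130 cells were kept, 1262 to 9644 per library. The libraries also differed in mitochondrial RNA and in depth, and whether these differences came from the treatments or from the libraries was not tested. In SPF day 2, 61.1% of barcodes were over the limit of 10% mitochondrial UMIs, against 6.41% to 28.1% elsewhere, and the median UMIs per kept cell ranged from 2380 in pGF day 7 to 19810.5 in pGF day 0. Between 5 and 131 barcodes were shared by any pair of libraries. Classes were named from marker genes after clustering without cell cycle genes, and no cluster was led by a cycle gene. All 8 T cell, 8 plasma cell, 12 monocyte or macrophage and 10 epithelial markers were above 10 CPM in the class named for them in every library described, and at least 13 of 15 dendritic markers were. Levels below are counts per 1000000 UMIs (CPM), the UMIs of a gene over those of its class and library. Because levels are shares of all RNA in a class, fewer dividing cells and less cycle RNA in each cannot be told apart from sums alone.

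T or NK-like cells numbered 360, 615 and 3094 in SPF and 247, 4682 and 4438 in pGF mice at days 0, 2 and 7. Both phases were highest in SPF mice after 2 days of DSS. Values are listed below for days 0, 2 and 7 of SPF mice and then of pGF mice, unless days are named. The replication genes together reached 431, 1213 and 456 CPM in SPF and 552, 458 and 382 CPM in pGF mice. Counting intervals were 1167 to 1260 CPM in SPF day 2 and did not reach above 590.4 CPM in any other library. The mitosis genes together reached 155, 694 and 244 CPM in SPF and 237, 153 and 96.1 CPM in pGF mice. The SPF day 2 library stood alone in both groups, whereas the other 5 lay within a narrower band, with pGF day 7 lowest for both.

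**Figure D2:**
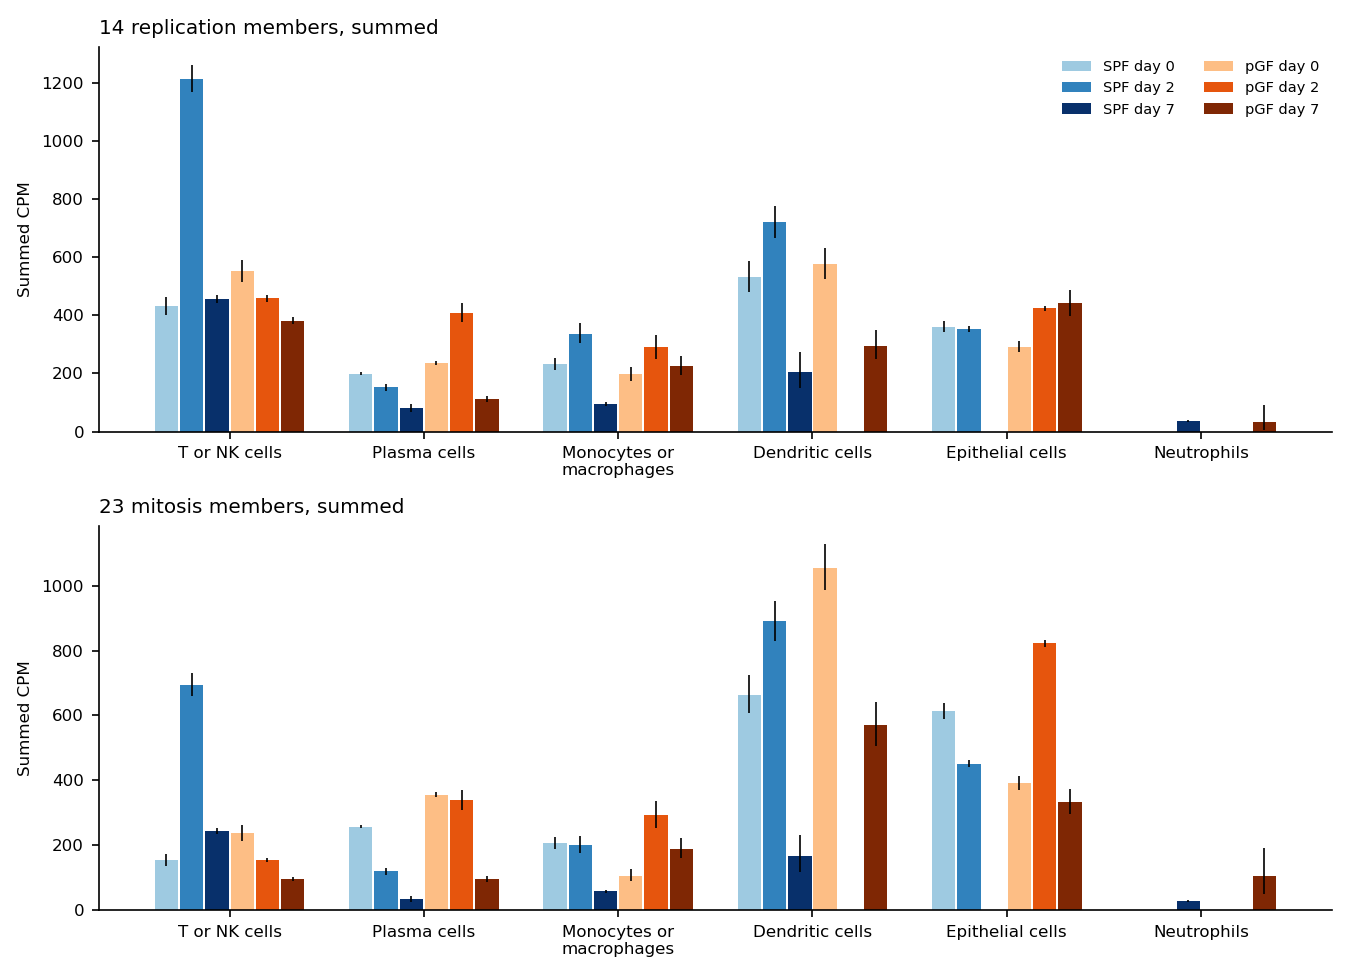
Summed CPM of the replication genes and of the mitosis genes by cell class and library. Each bar is 1 library, vertical lines are exact Poisson 95% intervals of the UMI sum, and classes with under 50 cells in a library are left out. The T or NK-like cells of SPF day 2 (1213 and 694 CPM) lie above those of the other 5 libraries in both groups.

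Among the replication genes, Pclaf, the partner of the PCNA clamp, had 22.2, 135 and 28.1 CPM in SPF and 32.4, 16.7 and 4.71 CPM in pGF mice. Mcm5, a subunit of the helicase, had 26.1, 77.4 and 29.9 CPM in SPF and 19.8, 24.4 and 22.1 CPM in pGF mice. Pcna had 141, 295 and 102 CPM in SPF and 147, 171 and 135 CPM in pGF mice. All 14 replication genes were highest in SPF day 2, Pclaf by a wide margin and Pcna by a smaller one. Uhrf1, the factor that maintains DNA methylation, had 10.6, 60.9 and 10.2 CPM in SPF and 17.2, 5.16 and 2.97 CPM in pGF mice. Mcm4, another helicase subunit, had 40.6, 83.8 and 47.2 CPM in SPF and 70.1, 49.1 and 41.5 CPM in pGF mice. Mcm7 had 39.5, 80.6 and 41.1 CPM in SPF and 39.7, 44.4 and 34.0 CPM in pGF mice. Both helicase genes were higher by less than 2-fold in SPF day 2 than in pGF day 2, and Uhrf1, like Pclaf, was lowest in pGF day 7.

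Among the mitosis genes, Mki67, which coats mitotic chromosomes and is the usual marker of cycling cells, had 7.23, 106 and 34.1 CPM in SPF and 17.2, 13 and 5.32 CPM in pGF mice. Top2a, the topoisomerase that untangles chromosomes, had 22.2, 139 and 27.1 CPM in SPF and 41.0, 18 and 10.2 CPM in pGF mice. Ube2c, an enzyme of the degradation step that ends mitosis, had 4.45, 32.1 and 12.1 CPM in SPF and 5.95, 5.69 and 1.05 CPM in pGF mice. These 3 genes were highest in SPF day 2 and lowest in pGF day 7. Of the 23 mitosis genes, 21 were highest in SPF day 2, and 17 were lowest in pGF day 7. Cenpa and Cdc20 were the exceptions. Cenpa, the centromeric histone, had 61.2, 62.8 and 50.1 CPM in SPF and 63.5, 58.5 and 47.7 CPM in pGF mice, and its highest library was 1.33-fold above its lowest, against 28.6-fold for Pclaf. Cdc20, an activator of the same degradation step, had 3.34, 5.50 and 5.16 CPM in SPF and 6.61, 3.08 and 2.53 CPM in pGF mice.

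The broad genes followed to different degrees. Stmn1 had 30.6, 171 and 49.7 CPM in SPF and 66.1, 32.1 and 20.9 CPM in pGF mice. Hmgb2 had 490.3, 969 and 399 CPM in SPF and 581, 639 and 447 CPM in pGF mice. Both were highest in SPF day 2, Stmn1 by over 2-fold and Hmgb2 by less.

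**Figure D3:**
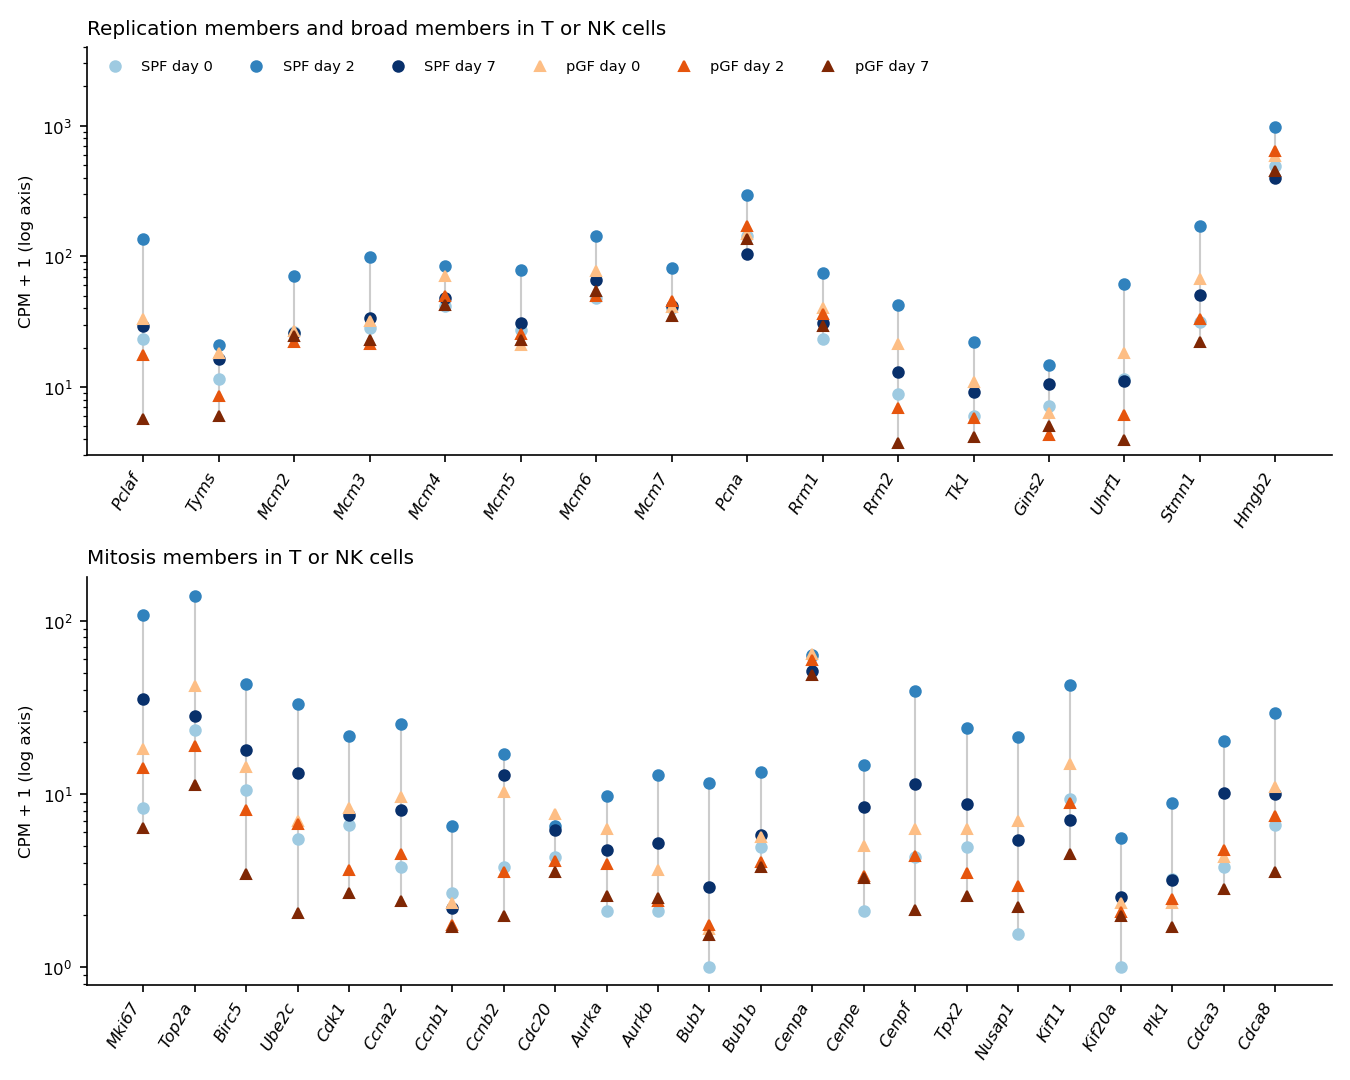
Levels of the members in T or NK-like cells in the 6 libraries. Genes stand on the x axis, the upper panel holding the replication and broad and the lower the mitosis genes, the y axis is CPM + 1 on a log scale, and each point is 1 library. All 14 replication genes and 21 of 23 mitosis genes are highest in SPF day 2, and Cenpa and Cdc20 are the mitosis genes that are not.

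Between the arms at day 2, all 39 members were lower in pGF than in SPF T or NK-like cells. The summed replication genes differed by a log2 ratio of -1.41 (-1.47 to -1.34) and the mitosis genes by -2.18 (-2.27 to -2.08), 2.65-fold and 4.52-fold lower. On the log2(CPM + 10) scale, which understates differences of low genes, 8 of 14 replication, 13 of 18 mitosis and 1 of 2 broad genes that reached 10 CPM were at least 2-fold lower and none higher, where 1.01% of all genes measured were higher and 1.57% of all 8432 genes measured were lower. Differences on this scale stand in brackets below, and the members with the largest and smallest in each group are named among those with at least 20 UMIs in both libraries together. Pclaf (-2.44) and Uhrf1 (-2.23) differed most among replication genes and Top2a (-2.41) and Mki67 (-2.34) among mitosis genes. Mcm4 (-0.67) and Mcm7 (-0.74), and Cdc20 (-0.24) and Cenpa (-0.09), differed least. In cells thinned to 1000 UMIs each the mitosis ratio was -1.58. With a pseudocount of 50 CPM in place of 10 CPM, 6 members were at least 2-fold lower in place of 22.

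The same members were higher at day 2 than at day 0 in SPF mice, all 39 of them. The summed log2 ratio was 1.49 (1.38 to 1.61) for replication and 2.17 (1.98 to 2.36) for mitosis. At least 2-fold higher were 10 of 14 replication and 14 of 18 mitosis genes, beside 1.83% of all genes. Pclaf (2.17) and Uhrf1 (1.79), and Mki67 (2.75) and Top2a (2.21), again differed most in their groups. Tyms (0.55) and Gins2 (0.56), and Plk1, the Polo kinase (0.54), and Cenpa (0.03), differed least. By SPF day 7 the ratios to day 2 were -1.41 (-1.48 to -1.34) and -1.51 (-1.60 to -1.41), with 9 of 14 replication and 7 of 18 mitosis genes at least 2-fold lower, beside 2.02% of all genes. Pclaf (-1.92) and Uhrf1 (-1.81), and Top2a (-2.0) and the spindle motor Kif11 (-1.67), differed most. Tyms (-0.25) and Gins2 (-0.28), and Cdc20 (-0.03) and cyclin B2 (Ccnb2, -0.26), differed least. Mki67 itself was 2.64-fold lower on that scale. Within the 2 clusters with at least 50 cells in both libraries the mitosis ratios were weaker than in the class, -0.90 (-1.15 to -0.65) and -0.69 (-0.91 to -0.46). The replication ratios there were -1.44 and -1.34.

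In pGF mice the sums were lower at day 2 than at day 0, by log2 ratios of -0.27 (-0.37 to -0.16) and -0.63 (-0.79 to -0.47). This direction did not hold throughout. Several clusters were led by Xcl1. In the one with 92 cells in pGF day 0, the ratios were -0.0151 (-0.20 to 0.18) and 0.33 (-0.02 to 0.69). In the CD8 alpha-alpha gate, a subset described below, they were 0.32 (0.12 to 0.53) and 0.60 (0.19 to 1.03). Its pGF day 0 sums rest on 209 replication and 52 mitosis UMIs from 91 cells. At a Leiden resolution of 0.5 they were 0.104 (-0.02 to 0.23) and -0.119 (-0.32 to 0.08), and without the highest cell of each library -0.106 (-0.22 to 0.01) and -0.309 (-0.49 to -0.12). No member passed 2-fold in either direction in the class, beside 0.586% of all genes higher and 0.878% lower. Rrm2 (-0.93), Top2a (-0.87), Uhrf1 (-0.84) and Ccnb2 (-0.62) were lowest, and Mcm5 (0.20), Pcna (0.20), Cdca3 (0.05) and Plk1 (0.02) highest. From day 2 to day 7 the pGF ratios were -0.26 (-0.32 to -0.21) and -0.68 (-0.78 to -0.57), again with no member past 2-fold (background 0.343% higher and 0.576% lower). Pclaf (-0.86), Mki67 (-0.59), Ube2c (-0.51) and Rrm2 (-0.33) were lowest, whereas Mcm6 (0.10), Mcm2 (0.10), Aurkb (0.01) and Cenpe (-0.01) were highest, all close to 0.

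The arms were closer before DSS and at day 7. At day 0 the pGF sums were higher, by 0.35 (0.21 to 0.50) for replication and 0.62 (0.39 to 0.85) for mitosis, and no member passed 2-fold beside 0.491% of all genes higher and 0.577% lower. Rrm2 (0.78), Mcm4 (0.66), Top2a (0.66) and Mki67 (0.66) were highest, and Mcm5 (-0.28), Mcm7 (0.01), Cenpa (0.05) and Cdk1 (0.15) lowest. At a coarser clustering (Leiden resolution 0.5) the replication ratio was -0.0065 and the mitosis ratio 0.0628. The day 0 mitosis sums rest on few cells. The highest cell held 23.1% of the UMIs in pGF and 27.0% in SPF cells, and the sums without it were 184 and 114 CPM. In pGF day 0, 8 cells of a CD4 gate, described below, held 222 of 834 replication and 127 of 359 mitosis UMIs. In SPF day 0, 14 such cells held 63 of 776 and 19 of 278. At day 7 the pGF cells had a replication ratio of -0.26 (-0.32 to -0.20) and a mitosis ratio of -1.35 (-1.45 to -1.24), so the mitosis genes differed more than the replication genes. Pclaf (-1.37), Mki67 (-1.53), Birc5, the survivin of the chromosomal passenger complex (-1.11), and Ube2c (-1.0) were the 4 members at least 2-fold lower, beside 0.963% of all genes, and Pcna (0.36) was highest. In cells thinned to 1000 UMIs the day 7 replication ratio was 0.0795, and pseudocounts of 1 and 50 CPM gave 11 and 0 members at least 2-fold lower.

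The ratio of mitosis to replication UMIs differed too. The mitosis sums include Cenpa, which lay between 47.7 and 63.5 CPM in the libraries. The whole mitosis sum was 96.1 CPM in pGF day 7 and 694 CPM in SPF day 2. The part of such steady members in the ratio was not tested. For each replication UMI there were 0.358, 0.572 and 0.535 mitosis UMIs in SPF T or NK-like cells at days 0, 2 and 7, and 0.430, 0.335 and 0.252 in pGF cells. In the class as a whole the ratio was thus higher on both DSS days than at day 0 in SPF mice. In pGF mice it was lower on both, and there 1 cell held 23.1% of the day 0 mitosis UMIs. Of the subsets described below, the ungated cells went the same way in both arms, but 1 cell held 54.8% of their pGF day 0 mitosis UMIs. Without the highest cell for each sum, they had 424 CPM of replication and 133 CPM of mitosis genes in pGF day 0. In pGF day 2 these values were 444 and 160 CPM, so the pGF direction was not kept. In the CD8 alpha-alpha gate the pGF values were 0.249 (0.180 to 0.339), 0.301 (0.276 to 0.328) and 0.206 (0.179 to 0.237). Day 2 was highest, though its interval overlapped that of day 0, while the SPF values of this gate followed the class. In the gamma-delta gate the SPF values were 0.447 (0.289 to 0.679), 0.525 (0.455 to 0.604) and 0.434 (0.385 to 0.489), with day 7 lowest but the intervals overlapping.

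Subsets were read from single UMIs of T cell genes in a fixed order. A cell that lacks the UMI of its subset therefore falls to a later gate or to the ungated remainder. A CD8 alpha-beta cell without a captured Cd8b1 UMI, for example, enters the CD8 alpha-alpha gate if it has a Cd8a UMI and no Cd4 UMI. In cells of a gamma-delta gate (a Trdc and a Cd3 UMI with no Trac UMI), replication sums were 277, 1101 and 413 CPM in SPF and 397 and 402 CPM in pGF (days 2 and 7) mice. Mitosis sums there were 124, 577 and 179 CPM in SPF and 103 and 97.5 CPM in pGF (days 2 and 7) mice. SPF day 2 was over 2-fold above the other 4 libraries in both. In a CD8 alpha-alpha gate (Cd8a without Cd8b1 or Cd4 UMIs), replication sums were 538, 1494 and 476 CPM in SPF and 385, 481 and 367 CPM in pGF mice. This gate, which gathers many intraepithelial T cells, had mitosis sums of 205, 851 and 287 CPM in SPF and 95.7, 145 and 75.6 CPM in pGF mice. Here too SPF day 2 was over 2-fold above every other library. The ungated cells had replication sums of 348, 1098 and 483 CPM in SPF and 522, 458 and 384 CPM in pGF mice. Their mitosis sums were 108, 565 and 226 CPM in SPF and 287, 172 and 112 CPM in pGF mice, where 1 cell held 54.8% of the pGF day 0 UMIs and the sum without it was 133 CPM. In all 3 of these subsets SPF day 2 held the highest value of both groups. The day 2 ratios of pGF to SPF were -1.47 (-1.62 to -1.32) and -2.49 (-2.73 to -2.25) in the gamma-delta gate, -1.64 (-1.73 to -1.54) and -2.56 (-2.71 to -2.40) in the CD8 alpha-alpha gate, and -1.26 (-1.39 to -1.13) and -1.72 (-1.91 to -1.53) in the ungated cells. At day 0 the CD8 alpha-alpha gate went the other way from the class as a whole, with pGF to SPF ratios of -0.49 (-0.73 to -0.24) and -1.10 (-1.58 to -0.64) from 91 and 137 cells. There 1 cell held 49.3% of the SPF mitosis UMIs, and without the highest cell of each library the sums were 106 CPM in SPF and 90.0 CPM in pGF cells.

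A CD8 alpha-beta gate (Cd8b1 UMI) reached 50 cells in 4 libraries, with replication sums of 333 and 440.0 CPM in SPF (days 0 and 7) and 528 and 385 CPM in pGF (days 2 and 7) mice. Its mitosis sums were 104 and 204 CPM in SPF (days 0 and 7) and 241 and 88.0 CPM in pGF (days 2 and 7) mice, but 1 cell held 53.3% of the SPF day 7 UMIs and the sum without it was 96.6 CPM. No SPF day 2 value can be set beside them. A CD4 gate reached 50 cells only in pGF days 2 and 7, where replication sums were 418 CPM (354 to 490.4) and 419 CPM (362 to 483) and mitosis sums 125 CPM (91.4 to 168) and 129 CPM (98.0 to 166). Foxp3-positive cells, regulatory T cells by their defining factor, numbered 1 to 39 per library and were not described.

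The clusters that held most T or NK-like cells were not the same in every library. The Xcl1-led cluster named above and a Gzma-led cluster held 32.5% and 30.0% of SPF day 0. In SPF day 7, 2 other clusters, likewise led by Xcl1 and by Gzma, held 39.0% and 43.4%. The first Xcl1-led cluster held 30.6% of pGF day 2 and 14.5% of SPF day 2. Within the 4 clusters with at least 50 cells in both day 2 libraries, the pGF to SPF ratio lay between -1.78 and -1.28 for replication and between -2.89 and -1.44 for mitosis, with all 4 intervals below 0 in both groups. Marker sums of other classes in T or NK-like cells were 203 to 544 CPM for epithelial markers (443 in SPF day 2, 544 in pGF day 2), 139 to 599 CPM for plasma cell markers, and 786 CPM for neutrophil markers in SPF day 7 against 5.00 to 19.3 CPM elsewhere. Their part in the results was not tested. With a mitochondrial limit of 25% in place of 10%, the day 2 ratios of the class were -1.32 for replication and -1.98 for mitosis.

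To count cells rather than RNA, each cell was thinned to 1000 UMIs, and a cell was given a replication or a mitosis pattern when at least 3 of those UMIs fell on at least 2 genes of the group. The replication pattern was found in 0.852% (3 of 352, 0.176 to 2.47), 8.99% (54 of 601, 6.82 to 11.6) and 1.65% (50 of 3037, 1.22 to 2.16) of SPF T or NK-like cells at days 0, 2 and 7, the brackets giving cells and the exact binomial interval. In pGF cells it was found in 3.24% (8 of 247, 1.41 to 6.28), 1.36% (62 of 4559, 1.04 to 1.74) and 0.954% (41 of 4299, 0.685 to 1.29). SPF day 2 was highest, and its interval did not overlap that of any other library. The mitosis pattern was found in 0.284% (1 of 352), 3.33% (20 of 601) and 1.19% (36 of 3037) of SPF cells, and in 1.21% (3 of 247), 0.417% (19 of 4559) and 0.0930% (4 of 4299) of pGF cells. The order of SPF day 2 first and pGF day 7 last in mitosis was that of the sums. Without thinning the shares were 23.6%, 27.3%, 12.0%, 36.4%, 14.2% and 7.50% for replication in the same order, where the deepest library, pGF day 0, came first. Cells with exactly 2 UMIs of the replication or of the mitosis genes, 1 under the limit, numbered 18, 57, 147, 11, 289 and 237. Some of these may hold the other pattern. Cells with either pattern numbered 4, 59, 73, 8, 72 and 42, so the shares depend on the limit.

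Neutrophils served as a class with little division. In SPF day 7, where they were many, the replication pattern was found in 0 of 2218 thinned cells, which allows a share of up to 0.135% (3 cells of the total), and the mitosis pattern in 0.0451% (1 of 2218). Their summed levels were 35.5 CPM (32.3 to 39.0) for replication and 26.8 CPM (24.0 to 29.8) for mitosis. The median depth there was 1463 UMIs in neutrophils and 3201 in T or NK-like cells. T or NK-like shares in SPF day 7 lay above this neutrophil background. Plasma cells, the other class held to have left the cycle, did not give a low background throughout. The mitosis pattern of plasma-like cells, described below, was more frequent than that of T or NK-like cells in several libraries and less frequent in others.

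**Figure D4:**
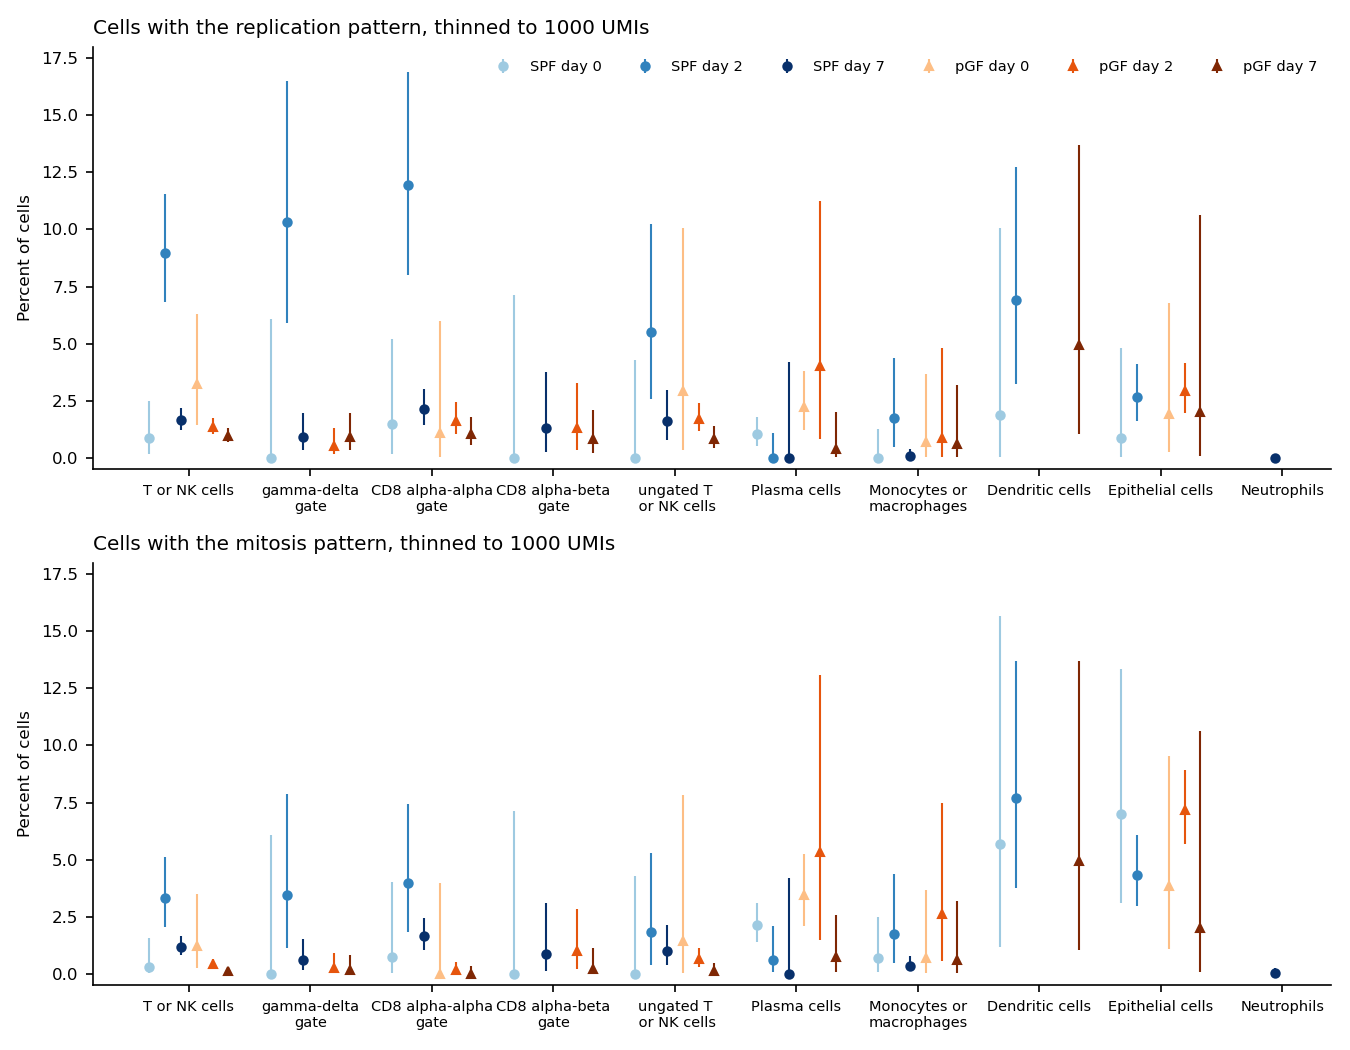
Percent of thinned cells with the replication pattern and with the mitosis pattern, by class and library. Points are 1 library each and vertical lines are exact binomial 95% intervals. In T or NK-like cells the replication share of SPF day 2 is 8.99% and that of the other 5 libraries lies between 0.852% and 3.24%.

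In the subsets of SPF day 2 the replication pattern was found in 11.9% (27 of 226, 8.02 to 16.9) of the CD8 alpha-alpha gate and 10.3% (15 of 145, 5.91 to 16.5) of the gamma-delta gate, and the mitosis pattern in 3.98% (9 of 226) and 3.45% (5 of 145). Their intervals overlapped. In SPF day 2, 39 T or NK-like cells had the replication pattern alone, 5 the mitosis pattern alone and 15 both. In SPF day 7 these numbers were 37, 23 and 13, in pGF day 2 they were 53, 10 and 9, and in pGF day 7 they were 38, 1 and 3. The cells with a pattern were deeper than the rest, with median UMIs before thinning of 6579 against 2822 in SPF day 2 and 3894.5 against 3052 in pGF day 2.

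The members differed in how far they stayed with these cells, which is a description because the members themselves chose the cells. In SPF day 2 the 59 cells with either pattern held 97.3% of all Pclaf UMIs and 32.4% of the Cenpa UMIs. Outside pattern cells, Pclaf had 0.447 to 4.57 CPM across the 6 libraries and Ube2c 0.268 to 4.20 CPM. Cenpa (39.8 to 62.9 CPM), Pcna (85.5 to 179 CPM) and Hmgb2 (301 to 595 CPM) stayed measurable in the other cells of every library. In thinned cells of SPF day 2, 18 cells had an Mki67 UMI and 583 had none. Top2a was detected in 61.1% against 2.57% of these, Stmn1 in 66.7% against 3.77%, Pclaf in 55.6% against 2.92% and Hmgb2 in 83.3% against 42.4%. Mcm5 was detected in 5.56% against 4.46%, 1 of the 18 cells, a smaller difference at this depth.

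Other cycle genes in T or NK-like cells, from lists that do not hold the members, lay on the same side. Between the day 2 libraries, 15 of 32 other replication genes and 10 of 23 other mitosis genes fell short of the SPF level by 2-fold or more in pGF cells and none exceeded it by as much, with medians of -0.97 and -0.96. The member medians were -1.21 and -1.31, and that of all genes -0.04. Over all genes 1.57% were at least 2-fold lower and 1.01% higher. Genes of cycle entry were at least 2-fold lower in 2 of 6. Brakes and quiescence genes gave 2 of 13 at least 2-fold higher, none lower and a median of -0.06.

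**Figure D5:**
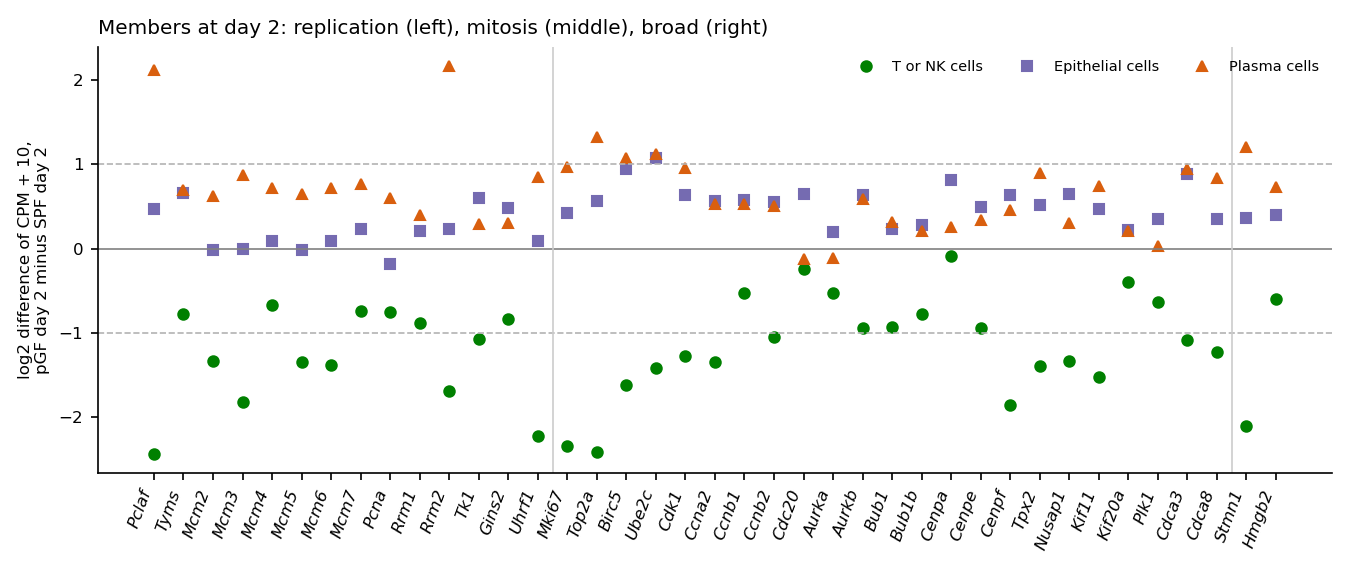
Difference of log2(CPM + 10) between pGF day 2 and SPF day 2 for each member in T or NK, epithelial and plasma cells. Each point is 1 gene in 1 class, the replication, mitosis and broad genes follow from left to right, and the dashed lines mark 2-fold. All 39 members lie below 0 in T or NK-like cells and all 23 mitosis genes above 0 in epithelial cells.

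Epithelial-like cells, which the stripping and the CD45 sort were meant to leave out, numbered 126, 767, 112, 1101 and 63 in the 5 libraries that reached 50. Replication sums were 359.9 and 351 CPM in SPF (days 0 and 2) and 291, 424 and 442 CPM in pGF mice. Mitosis sums were 613 and 451 CPM in SPF (days 0 and 2) and 391, 822 and 333 CPM in pGF mice. The highest mitosis value was that of pGF day 2, where T or NK-like cells were low, and the replication sums varied less. Mki67 had 74.9 and 56.0 CPM in SPF (days 0 and 2) and 40.1, 78.3 and 66.6 CPM in pGF mice. Top2a had 40.6 and 34.8 CPM in SPF (days 0 and 2) and 27.3, 56.4 and 28.7 CPM in pGF mice. Ube2c had 58.3 and 51.5 CPM in SPF (days 0 and 2) and 44.5, 119.5 and 43.6 CPM in pGF mice. All 3 of these mitosis genes were highest in pGF day 2, Mki67 only just above SPF day 0. Pclaf had 50.9 and 61.6 CPM in SPF (days 0 and 2) and 35.4, 89.3 and 33.3 CPM in pGF mice. Mcm5 had 22.3 and 15.0 CPM in SPF (days 0 and 2) and 12.5, 14.7 and 23.0 CPM in pGF mice. Pcna had 77.9 and 96.9 CPM in SPF (days 0 and 2) and 70.5, 84.2 and 109 CPM in pGF mice. Pclaf was highest in pGF day 2, and Mcm5 and Pcna in pGF day 7. Stmn1 had 85.3 and 89.0 CPM in SPF (days 0 and 2) and 77.7, 117 and 96.4 CPM in pGF mice. Hmgb2 had 297 and 359 CPM in SPF (days 0 and 2) and 263, 476 and 326 CPM in pGF mice, and both broad genes were highest in pGF day 2.

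At day 2 all 23 mitosis genes were higher in pGF than in SPF epithelial-like cells, with a summed log2 ratio of 0.87 (0.82 to 0.91), but only Ube2c (1.07) of 21 reached 2-fold, beside 0.338% of all genes. Birc5 (0.94) followed, and Aurka (0.20) and Kif20a (0.23) differed least. The replication genes had a ratio of 0.27 (0.22 to 0.32), from Tyms (0.66) and Tk1 (0.61) to Mcm5 (-0.02) and Pcna (-0.18), none past 2-fold. From day 0 to day 2 the mitosis ratio was -0.44 (-0.51 to -0.37) in SPF and 1.07 (0.99 to 1.16) in pGF mice, opposite directions whose difference was not tested. In pGF mice Ube2c (1.25), Cenpf (1.21), Cdca3, a trigger of mitotic entry (1.05), and Pclaf (1.13) were at least 2-fold higher at day 2, beside 0.661% of all genes. By pGF day 7, in 63 cells, 9 of 21 mitosis genes were at least 2-fold lower than at day 2, beside 0.865% of all genes, led by Birc5 (-1.49) and Cenpa (-1.48), whereas Mki67 (-0.21) was not. In pGF day 7, 1 cell held 47.2% of the mitosis UMIs, and the sum without it was 182 CPM. The makeup of the class differed as well, with a Sycn-led cluster at 11.1% against 31.3% and a Saa1-led one at 22.2% against 5.45%.

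The Car1-led epithelial cluster held 48.1% of the class in SPF day 2 and 39.0% in pGF day 2, and alone gave mitosis sums of 471 and 501 CPM in SPF (days 0 and 2) and 391 and 1016 CPM in pGF (days 0 and 2) mice. As in the class, pGF day 2 was highest and pGF day 0 lowest of these 4 libraries. The clusters did not all go one way between the arms at day 2. The mitosis ratio was 1.02 (0.97 to 1.07) in the Car1-led and 0.97 (0.89 to 1.06) in a Sycn-led cluster, with all 23 mitosis genes higher in pGF cells in each. In a cluster led by Spink4 and Muc2, the latter the main mucin of goblet cells, the ratio was -0.57 (-0.71 to -0.42) from 129 pGF and 71 SPF cells, and 21 of the 23 were lower, Aurkb and Plk1 being the exceptions. There 1 cell held 43.9% of the pGF mitosis UMIs, and the pGF sum was 381 CPM with it and 218 CPM without it. In SPF cells 1 cell held 29.1%, and the sum was 565 CPM with it and 419 CPM without it. The difference between clusters was not tested. Before DSS the pGF cells were lower, with ratios of -0.31 (-0.43 to -0.19) and -0.65 (-0.75 to -0.55), though thinning gave 0.361 for replication. The mitosis pattern was found in 7.02% (8 of 114) and 4.31% (31 of 720) of SPF and in 3.85% (4 of 104), 7.19% (74 of 1029) and 2.00% (1 of 50) of pGF epithelial-like cells. The replication pattern was less frequent, 2.64% (19 of 720) in SPF day 2 and 2.92% (30 of 1029) in pGF day 2, whereas in T or NK-like cells of the same libraries it was the more frequent of the 2 patterns.

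Plasma-like cells numbered 1350, 352 and 93 in SPF and 590, 77 and 280 in pGF mice. Replication sums were 199, 152 and 80.0 CPM in SPF and 237, 408 and 112 CPM in pGF mice. Mitosis sums were 257, 119 and 34.2 CPM in SPF and 355, 338 and 94.7 CPM in pGF mice. Within SPF mice both sums were lower on each later day, whereas in pGF mice replication was highest at day 2 and mitosis was close at days 0 and 2. Mki67 had 48.4, 28.6 and 7.74 CPM in SPF and 67.8, 65.2 and 19.2 CPM in pGF mice. Top2a had 23.4, 16.3 and 1.29 CPM in SPF and 29.5, 56.2 and 9.37 CPM in pGF mice. Pclaf had 27.5, 12.5 and 1.29 CPM in SPF and 34.0, 87.4 and 6.17 CPM in pGF mice. Mki67 was highest in pGF day 0, and Top2a and Pclaf in pGF day 2, Pclaf there over 2-fold above any other library. Mcm5 had 6.30, 3.87 and 1.93 CPM in SPF and 9.17, 11.8 and 1.73 CPM in pGF mice. Pcna had 38.1, 47.3 and 21.3 CPM in SPF and 39.6, 77.0 and 32.1 CPM in pGF mice. Both were highest in pGF day 2. Stmn1 had 20.5, 10.5 and 3.22 CPM in SPF and 31.2, 37.5 and 14.3 CPM in pGF mice. Hmgb2 had 85.9, 106 and 25.8 CPM in SPF and 103, 183 and 66.1 CPM in pGF mice, and the broad genes too were highest in pGF day 2.

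At day 2 the pGF to SPF ratio was 1.42 (1.26 to 1.58) for replication and 1.51 (1.33 to 1.69) for mitosis, the opposite direction from T or NK-like cells in the same libraries. Rrm2, a subunit of ribonucleotide reductase (2.16), Pclaf (2.12), Top2a (1.33), Ube2c (1.13), Birc5 (1.08) and Stmn1 (1.21) were at least 2-fold higher, 2 of 13 replication, 3 of 11 mitosis and 1 of 2 broad genes beside 2.37% of all genes. Tk1 (0.29), Rrm1 (0.40), Cenpa (0.26) and Bub1b (0.21) differed least. These pGF day 2 sums rest on 77 cells, and the highest cell held 31.0% of the replication and 39.6% of the mitosis UMIs. Without the highest cell for each the sums were 295 CPM for replication and 214 CPM for mitosis. B cell markers summed to 4215 CPM in these cells against 1026 to 1929.9 CPM in the other libraries, and their part was not tested. From day 0 to day 2 replication had a ratio of -0.39 (-0.50 to -0.28) in SPF and 0.79 (0.66 to 0.91) in pGF mice. At days 0 and 7 the arms differed by 0.47 (0.42 to 0.51) and 1.47 (1.05 to 1.91) in mitosis, the latter against 93 SPF cells of which 1 held 60.4% of the UMIs.

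Plasma-like cells held 33 of 54 (61.1%) of all cells with either pattern in SPF day 0 and 27 of 50 (54.0%) in pGF day 0. The mitosis pattern was found in 2.12% (25 of 1181), 0.587% (2 of 341) and 0% (0 of 86) of SPF plasma-like cells. In pGF plasma-like cells it was found in 3.42% (20 of 584), 5.33% (4 of 75) and 0.722% (2 of 277). The 0 of SPF day 7 allows a share of up to 3.49%, again 3 cells of the total. These shares were above those of T or NK-like cells in SPF day 0 and in all pGF libraries. In SPF days 2 and 7 they were below them. Plasma-like cells were thus not a class with little division throughout, unlike the neutrophils of SPF day 7. On the DSS days T or NK-like cells held the largest share of pattern cells in SPF day 2, 59 of 134 (44.0%), SPF day 7, 73 of 93 (78.5%), and pGF day 7, 42 of 65 (64.6%), while in pGF day 2 epithelial-like cells held 92 of 199 (46.2%) and T or NK-like cells 72 of 199 (36.2%). These numbers also follow how many cells of each class a library held.

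Dendritic-like cells numbered 52 to 136 in the 5 libraries described, and their mitosis sums were above those of T or NK-like cells in the same libraries except in SPF day 7. Replication sums were 531, 719.9 and 205 CPM in SPF and 577 and 295 CPM in pGF (days 0 and 7) mice. Mitosis sums were 664, 890.4 and 168 CPM in SPF and 1055 and 570.3 CPM in pGF (days 0 and 7) mice. SPF day 7 was lowest in both. Without the highest cell the mitosis sums were 665 CPM in pGF day 0 and 109.9 CPM in SPF day 7. Mki67 had 93.3, 113 and 32.6 CPM in SPF and 149 and 92.6 CPM in pGF (days 0 and 7) mice. Top2a had 111, 149.8 and 14.0 CPM in SPF and 91.6 and 44.2 CPM in pGF (days 0 and 7) mice. Both were lowest in SPF day 7, and among SPF libraries highest at day 2. Pclaf had 95.8, 147 and 14.0 CPM in SPF and 115 and 37.9 CPM in pGF (days 0 and 7) mice. Mcm5 had 25.6, 35.8 and 32.6 CPM in SPF and 45.2 and 12.6 CPM in pGF (days 0 and 7) mice. Pcna had 118, 189 and 65.2 CPM in SPF and 114 and 116 CPM in pGF (days 0 and 7) mice. Pclaf and Pcna were over 2-fold lower in SPF day 7 than in SPF day 2, whereas Mcm5 was close in the 2 libraries. Stmn1 had 130.3, 156 and 32.6 CPM in SPF and 194 and 65.2 CPM in pGF (days 0 and 7) mice. Hmgb2 had 646, 808 and 149 CPM in SPF and 745 and 503 CPM in pGF (days 0 and 7) mice, with the lowest value of both again in SPF day 7.

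Between SPF days 2 and 7 the dendritic ratios were -1.81 (-2.29 to -1.37) and -2.41 (-2.93 to -1.93), with 9 of 14 replication and 14 of 18 mitosis genes at least 2-fold lower, beside 18.1% of all genes, a high background. Top2a (-2.74) and Pclaf (-2.71) differed most, and Mcm5 (-0.10) and Tpx2 (-0.54) little. The kinds of dendritic cell differed too. A Ccr7- and Fscn1-high sub-cluster, genes of migrating dendritic cells, held 84.6% of SPF day 7 and 2.94% of SPF day 2. Over all libraries that sub-cluster had 281 and 253 CPM of replication and mitosis genes, an Xcr1-high one 698 and 1031 CPM, and a Cd209a-high one 439.6 and 568 CPM. At day 7 the pGF to SPF ratio was 1.77 (1.26 to 2.31) for mitosis, with 11 of 16 mitosis genes at least 2-fold higher beside 14.5% of all genes, but 1 pGF cell held 54.6% of the mitosis UMIs and the sum without it was 275 CPM. The Ccr7-high sub-cluster held 23.9% of pGF day 7, against the 84.6% of SPF day 7. Plasma cell markers in dendritic-like cells summed to 6234 CPM in pGF day 0 and 3207 in pGF day 7 against 135 to 386 CPM in SPF mice, and their part was not tested. At day 0 the arms differed by 0.12 (-0.08 to 0.31) and 0.67 (0.51 to 0.83), with Ccnb2 (1.34), Cenpf (1.28) and Cenpa (1.03) at least 2-fold higher in pGF cells, beside 1.63% of all genes.

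Monocyte- or macrophage-like cells had their lowest sums in SPF day 7. Neutrophil markers in the class summed to 6389 CPM in that library, with all 9 over 10 CPM, against 99.3 to 421 CPM elsewhere, and its own markers to 7946 CPM against 18954 to 26229.8 CPM. Their part in the results was not tested. Replication sums were 232, 336 and 94.2 CPM in SPF and 197, 289.9 and 224 CPM in pGF mice. Mitosis sums were 206, 201 and 57.1 CPM in SPF and 106, 293 and 189.6 CPM in pGF mice. Mki67 had 26.2, 43.4 and 28.4 CPM in SPF and 32.8, 80.3 and 45.1 CPM in pGF mice. Top2a had 14.5, 30.1 and 3.46 CPM in SPF and 2.40, 22.3 and 9.25 CPM in pGF mice. These 2 genes differed in their order, with Mki67 highest in pGF day 2 and lowest in SPF day 0, and Top2a highest in SPF day 2 and lowest in pGF day 0. Pclaf had 11.3, 19.5 and 0.629 CPM in SPF and 0.80, 14.9 and 6.94 CPM in pGF mice. Mcm5 had 7.26, 15.0 and 1.89 CPM in SPF and 6.40, 8.92 and 10.4 CPM in pGF mice. Pcna had 98.9, 159 and 54.5 CPM in SPF and 124, 135 and 117 CPM in pGF mice. SPF day 7 was lowest in all 3 replication genes. Stmn1 had 32.3, 45.1 and 4.82 CPM in SPF and 11.2, 47.6 and 26.6 CPM in pGF mice. Hmgb2 had 203, 277 and 184 CPM in SPF and 174, 311 and 232 CPM in pGF mice, highest like Stmn1 in pGF day 2.

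From SPF day 2 to day 7 the ratios were -1.84 (-2.01 to -1.66) and -1.81 (-2.04 to -1.58), with 5 of 8 replication and 2 of 3 mitosis genes at least 2-fold lower, beside 15.8% of all genes. Neutrophil markers were at 139.8 CPM in SPF day 2 and 6389 CPM in SPF day 7. Mcm3 (-1.53), Pclaf (-1.47), Top2a (-1.57) and Cenpa (-1.44) differed most. The makeup of the class differed between these libraries, and a Saa3-led cluster held 81.4% of SPF day 7 and 35.5% of SPF day 2. In the C1q-led cluster, marked by complement genes of resident macrophages, replication sums were 207, 419.8 and 195 CPM in SPF and 201, 291 and 247 CPM in pGF mice. Its mitosis sums were 218, 222 and 125 CPM in SPF and 101, 314 and 46.4 CPM in pGF mice, lowest in pGF day 7. At day 7 the pGF to SPF ratio of the whole class was 1.25 (1.02 to 1.48) for replication and 1.73 (1.47 to 1.99) for mitosis, with 2 of 4 mitosis and 0 of 7 replication genes at least 2-fold higher, beside 10.5% of all genes, and in the C1q-led cluster it was 0.34 (-0.004 to 0.68) and -1.43 (-2.12 to -0.79). A single cell held 74.4% of the pGF day 7 mitosis UMIs of the class, and without it the sum was 50.0 CPM. At day 2 the arms differed by -0.21 (-0.47 to 0.04) and 0.54 (0.26 to 0.83), with Ccnb2 (1.28) as the 1 mitosis gene of 11 at least 2-fold higher, beside 2.61% of all genes, and no replication gene of 8. Mki67 (0.76) was higher by less, and Mcm6 (-0.55) and Mcm5 (-0.40) lowest. At day 0 the ratios were -0.24 (-0.46 to -0.02) and -0.96 (-1.25 to -0.68), and in cells thinned to 1000 UMIs they were 0.398 and 0.157. Ube2c (-1.34) was the 1 of 6 mitosis genes that was at least 2-fold lower in pGF cells, beside 1% of all genes.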

How the data were processed

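Each library was a 10x 5′ library of CD45-positive cells. The deposited values are unnormalized counts of UMIs, which the authors made with Cell Ranger 6.1.2 on mm10, per the submitters' processing notes. These notes also name R 4.1.3 and Seurat 4.1.1, from which no value was used. Barcodes with at least 200 genes and at most 10% mitochondrial UMIs were kept. Simulated doublets were used to remove 0.8% per 1000 barcodes. Cells were clustered with leidenalg 0.10.2 and named from markers. Settings were 2000 variable genes without cycle, receptor, mitochondrial, Y-linked and Xist genes, 30 components, 20 neighbours and resolution 1. Resolution 0.5 was used for sub-clusters, which were taken from unnamed clusters of at least 200 cells. The requirement that a marker list score at least 1, and the sub-clustering, were chosen after the clusters had been seen.

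UMIs were summed per class and library of at least 50 cells and scaled to CPM, with exact Poisson intervals for levels, exact conditional binomial intervals for ratios and exact Clopper-Pearson intervals for shares of cells (scipy 1.17.1). A count of 0 cells carries the limit that 3 cells of the total would give, not the Clopper-Pearson bound. Intervals and limits cover counting error only. With 1 library per group there is no test. A gene was counted at 2-fold on log2(CPM + 10) if it reached 10 CPM in either library. Up to 2 members at each end of each group were named, among those with at least 20 UMIs in both libraries together, beside members chosen by role. The scripts were tested on simulated data. The members and lists were chosen with earlier results of these data known.

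Alternatives were TMM scaling, other pseudocounts, filters, clusterings, doublet handling, thinning and pattern limits, and sums without the most abundant member. Leaving out the highest cell of each library and taking the C1q-led cluster alone were added after the data had been seen.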

Additional observations from a re-analysis of the deposited data

Results flagged for a closer look

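Between days 0 and 2 of DSS some sums went opposite ways in the SPF and pGF arms. In T or NK-like cells the log2 ratio of day 2 to day 0 was 1.49 in SPF and -0.27 in pGF mice for the replication genes, and 2.17 and -0.63 for the mitosis genes. In plasma-like cells the replication ratio was -0.39 in SPF and 0.79 in pGF mice. There 1 of 77 pGF day 2 cells held 31.0% of the replication UMIs. Without the highest cell of each library the pGF replication sums were 228 CPM at day 0 and 295 CPM at day 2. In epithelial-like cells the mitosis ratio was -0.44 in SPF and 1.07 in pGF mice. The SPF direction was not seen in the Car1-led cluster, with mitosis sums of 471 CPM at SPF day 0 and 501 CPM at SPF day 2. Each arm has 1 library per day, so the difference between the arms was not tested. The pGF values of T or NK-like cells did not keep their direction throughout. At a Leiden resolution of 0.5 the ratios were 0.104 (-0.02 to 0.23) for replication and -0.119 (-0.32 to 0.08) for mitosis. Without the highest cell of each library they were -0.106 (-0.22 to 0.01) and -0.309 (-0.49 to -0.12). Within the Xcl1-led cluster with 92 pGF day 0 cells they were -0.0151 and 0.33, with both intervals reaching 0. In the CD8 alpha-alpha gate they were 0.32 and 0.60, with 209 replication and 52 mitosis UMIs in its 91 pGF day 0 cells.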

How the results depend on the processing

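No paired analysis was possible because there was 1 library per group. With no replicates, values were compared by the counting interval of the value as reported. Of 534 log2 ratios recomputed under alternatives, 374 stayed within that interval, 150 left it with their direction kept or with an interval that reached 0, and 10 turned. Of 402 pattern shares, 318 stayed within it and 84 left it. Of 526 counts of members past 2-fold, 451 stayed within 1.5 times and 75 did not. The cause of these differences was not tested. 

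Clustering at a Leiden resolution of 0.5 gave in T or NK-like cells ratios of -0.0065 for replication and 0.0628 for mitosis between the arms at day 0, -1.39 for mitosis between SPF days 7 and 2 and 0.10 for replication and -0.12 for mitosis between pGF days 2 and 0. In dendritic-like cells it gave a ratio of 2.31 for mitosis between the arms at day 7. Sums without the most abundant member gave in T or NK-like cells ratios of 0.90 for mitosis between the arms at day 0, -1.68 for replication and -2.73 for mitosis between the arms at day 2, -0.52 for replication and -2.01 for mitosis between the arms at day 7, 1.66 for replication and 2.76 for mitosis between SPF days 2 and 0, -1.70 for mitosis between SPF days 7 and 2, -0.49 for replication and -0.87 for mitosis between pGF days 2 and 0 and -0.97 for mitosis between pGF days 7 and 2. In plasma-like cells it gave a ratio of 1.66 for replication between the arms at day 2. In monocyte- or macrophage-like cells it gave ratios of -0.87 for replication and -1.30 for mitosis between the arms at day 0 and 2.33 for mitosis between the arms at day 7. In epithelial-like cells it gave ratios of 0.42 for replication and 0.81 for mitosis between the arms at day 2. Thinning each cell to 1000 UMIs gave in T or NK-like cells ratios of -0.96 for replication and -1.58 for mitosis between the arms at day 2, 0.0795 for replication and -0.95 for mitosis between the arms at day 7, 1.19 for replication and 1.73 for mitosis between SPF days 2 and 0, -1.22 for replication and -1.29 for mitosis between SPF days 7 and 2, -0.0974 for replication and -0.29 for mitosis between pGF days 2 and 0 and -0.18 for replication between pGF days 7 and 2. In plasma-like cells it gave ratios of 0.60 for replication and 0.39 for mitosis between the arms at day 0 and 3.40 for replication and 2.56 for mitosis between the arms at day 7. In monocyte- or macrophage-like cells it gave ratios of 0.40 for replication and 0.16 for mitosis between the arms at day 0, 0.24 for replication between the arms at day 2 and -0.12 for mitosis between the arms at day 7. In epithelial-like cells it gave ratios of 0.36 for replication and -0.39 for mitosis between the arms at day 0, 0.21 for replication between the arms at day 2 and -0.34 for replication between pGF days 2 and 0. TMM scaling gave in T or NK-like cells ratios of -1.30 for replication and -2.07 for mitosis between the arms at day 2, -0.15 for replication and -1.24 for mitosis between the arms at day 7 and 1.32 for replication between SPF days 2 and 0. In monocyte- or macrophage-like cells it gave ratios of 0.64 for replication and 1.12 for mitosis between the arms at day 7. In epithelial-like cells it gave ratios of 0.22 for replication and 0.81 for mitosis between the arms at day 2. A mitochondrial limit of 25% gave in T or NK-like cells ratios of -1.32 for replication and -1.98 for mitosis between the arms at day 2, -1.53 for mitosis between the arms at day 7 and -1.31 for replication and -1.22 for mitosis between SPF days 7 and 2. In T or NK-like cells it gave 7 members at least 2-fold lower between the arms at day 7. In epithelial-like cells it gave ratios of -0.76 for mitosis between the arms at day 0 and 0.37 for replication and 0.96 for mitosis between the arms at day 2. A limit of 500 genes per cell gave in T or NK-like cells ratios of -1.58 for mitosis between the arms at day 7 and -1.29 for mitosis between SPF days 7 and 2. In T or NK-like cells it gave 8 members at least 2-fold lower between the arms at day 7. In monocyte- or macrophage-like cells it gave a ratio of 1.02 for replication between the arms at day 7. In dendritic-like cells it gave a ratio of 2.70 for mitosis between the arms at day 7. Keeping doublets gave in T or NK-like cells ratios of -1.52 for mitosis between the arms at day 7 and -1.33 for mitosis between SPF days 7 and 2. The replication pattern was then seen in 2.18% in SPF day 7 and 1.22% in pGF day 0. In plasma-like cells it gave a ratio of 2.04 for mitosis between the arms at day 2. In monocyte- or macrophage-like cells it gave a ratio of 0.0993 for replication between the arms at day 2. In dendritic-like cells it gave a ratio of 0.44 for mitosis between the arms at day 0. Leaving out the highest cell of each library, also chosen after the data had been seen, gave in T or NK-like cells ratios of 2.49 for mitosis between SPF days 2 and 0 and -0.11 for replication and -0.31 for mitosis between pGF days 2 and 0. In plasma-like cells it gave ratios of 1.16 for replication and 1.15 for mitosis between the arms at day 2 and 2.39 for mitosis between the arms at day 7. In monocyte- or macrophage-like cells it gave a ratio of -0.14 for mitosis between the arms at day 7. In dendritic-like cells it gave a ratio of 0.40 for mitosis between the arms at day 0. In epithelial-like cells it gave ratios of -0.43 for replication between the arms at day 0 and 0.93 for mitosis between the arms at day 2. Clustering with the cell cycle genes kept gave in T or NK-like cells a ratio of -0.80 for mitosis between pGF days 2 and 0. In T or NK-like cells it gave 1 member at least 2-fold higher between the arms at day 0. In plasma-like cells it gave a ratio of 1.62 for replication between the arms at day 2. The C1q-led cluster alone, chosen after the data had been seen, gave in monocyte- or macrophage-like cells ratios of -0.53 for replication between the arms at day 2 and 0.34 for replication and -1.43 for mitosis between the arms at day 7. A pseudocount of 1 CPM gave in T or NK-like cells 3 members at least 2-fold higher between the arms at day 0 and 11 members at least 2-fold lower between the arms at day 7. A pseudocount of 50 CPM gave in T or NK-like cells 6 members at least 2-fold lower between the arms at day 2 and 0 members at least 2-fold lower between the arms at day 7. A pattern limit of 2 UMIs gave a replication pattern among T or NK-like cells of 3.41% in SPF day 0, 14.8% in SPF day 2, 5.00% in SPF day 7, 6.48% in pGF day 0, 5.59% in pGF day 2 and 4.82% in pGF day 7. The mitosis pattern was then seen in 1.68% in SPF day 7, 0.877% in pGF day 2 and 0.326% in pGF day 7. A pattern limit of 5 UMIs gave a replication pattern among T or NK-like cells of 0% in SPF day 0, 4.16% in SPF day 2, 0.428% in SPF day 7, 0.810% in pGF day 0, 0.197% in pGF day 2 and 0.140% in pGF day 7. The mitosis pattern was then seen in 0.724% in SPF day 7 and 0.219% in pGF day 2. Thinning to 2000 UMIs gave a replication pattern among T or NK-like cells of 4.50% in SPF day 0, 20.1% in SPF day 2, 5.56% in SPF day 7, 5.20% in pGF day 2 and 4.29% in pGF day 7. The mitosis pattern was then seen in 6.5% in SPF day 2, 2.05% in SPF day 7, 0.735% in pGF day 2 and 0.297% in pGF day 7.

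Depth limits the pattern shares, since the median UMIs per kept cell ranged from 2380 to 19810.5 between libraries. Plasma-like cells of pGF day 2 (77 cells), epithelial-like cells of pGF day 7 (63) and dendritic-like cells (52 to 136) give the least precise values. Without a low value filter none of the 60 counts of members differed by over 1.5 times.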

Other observations

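Hmgb2, the chromatin gene of the broad group, was high in a class with little sign of division. Neutrophil-like cells had 698 CPM of Hmgb2 (684 to 713) in SPF day 7 and 792 CPM (624 to 991) in pGF day 7, against 399 and 447 CPM in T or NK-like cells of the same libraries. In pGF day 7 there were 65 neutrophil-like cells, and their replication sum of 31.3 CPM (6.45 to 91.4) and mitosis sum of 104 CPM (50.0 to 192) rest on 3 and 10 UMIs. This gene and class were chosen after their values had been seen, and no difference was tested.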
